A study of Mus musculus with 12 samples.

Results

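The 7 genes described here are Lcn2, Saa3, Hp, Cp, Steap4, Socs3 and Slc39a14, out of 49585 genes in the deposited count table. They were listed as acute-phase and iron-handling genes. Steap4 was chosen by its own counts in these libraries, for a large rise between groups, so all of its differences are given as descriptions, without a test. The other 6 were open to test. RNA was sequenced from osteoblasts grown out of the calvariae (skull bones) of neonatal wild-type (WT) littermates and Bcl3-/- mice, which carry a knockout of Bcl3. The cultures were induced with 50 µg/ml ascorbic acid and 2 mM β-glycerophosphate, given to every group, and RNA was taken on day 1 or day 3. Genotype and day together gave 4 groups, each with 3 libraries. The labels carry 6 culture codes, 3 per genotype, each with a library on both days, and a culture came from 1 to 3 pooled calvariae by the labels and from 3 by the study's methods. These are mixed primary cells and not a clone.

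The acute-phase response is a change in secreted proteins that interleukin-1 (IL-1), tumor necrosis factor and interleukin-6 (IL-6) induce, in liver above all but also in fat and connective tissue. Much of it acts on iron: lipocalin 2 (Lcn2) binds bacterial siderophores, haptoglobin (Hp) binds free hemoglobin, ceruloplasmin (Cp) oxidizes ferrous iron as it leaves cells, and the zinc and iron transporter ZIP14 (Slc39a14) carries non-transferrin-bound iron into cells. STEAP4 is a membrane metalloreductase that reduces ferric iron and cupric copper. Serum amyloid A3 (Saa3) is an inducible lipid-binding protein made outside the liver, and SOCS3 is the feedback inhibitor of IL-6 family receptors that signal through gp130 and STAT3. BCL3 is an atypical IκB protein that binds the p50 and p52 subunits of NF-κB in the nucleus.

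Gene counts per library ran from 20009732 to 41953891. No pair of libraries held copies of each other. By the root mean square difference on the log2 scale over all genes tested, 11 libraries lay nearest to the mean of their own group. The other 1, day 3 Bcl3-/- replicate 1, lay at 0.490 from the day 3 WT mean. It lay at 0.553 from the mean of the other Bcl3-/- libraries of that day. By a chi-square of counts per gene, its nearest library was day 3 Bcl3-/- replicate 2 (12.0), with the day 3 WT libraries at 37.9 to 93.6. Calls of named genes that depended on day 3 Bcl3-/- replicate 1 are therefore also given without it. Shares of all genes called come from the fit of all libraries. For fits without that library they are not reported here, so counts from such fits are descriptions. The Bcl3 gene itself did not separate the genotypes on day 1. Bcl3 stood at 18.0, 21.8 and 17.8 CPM (counts scaled to the total of each library) in day 1 WT and at 17.5, 19.7 and 19.2 CPM in day 1 Bcl3-/- libraries. On day 3, Bcl3 stood at 14.8, 15.9 and 12.8 CPM in WT and at 10.2, 9.72 and 8.31 CPM in Bcl3-/- libraries. The day 3 groups did not overlap, as for 15.6% of genes in this direction, with a log2 fold change of -0.62 (SE 0.12, adjusted p = 0.00809, edgeR). Which part of the gene is deleted is not given in the sources used here, so counts over the whole gene check the labels only in part, and Bcl3-/- below means the libraries labelled so.

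RefSeq promoter windows were given for 5 of the 7 genes, namely Lcn2, Saa3, Cp, Steap4 and Socs3. They are shown for the 4 genes whose window begins outside annotated exons, because NF-κB, STAT3 and C/EBP factors are the known routes to acute-phase genes. Each is printed on the gene's strand, in GRCm38.p6, up to the annotated start or the first annotated exon of a protein-coding gene. Capitals mark letters matching, on either strand, TTCNNNGAA (STAT), TTGCNNAA (C/EBP) or an NF-κB motif of GGG and CC with any 5 bases between them.
Steap4, chr5:7960222-7960456, plus strand: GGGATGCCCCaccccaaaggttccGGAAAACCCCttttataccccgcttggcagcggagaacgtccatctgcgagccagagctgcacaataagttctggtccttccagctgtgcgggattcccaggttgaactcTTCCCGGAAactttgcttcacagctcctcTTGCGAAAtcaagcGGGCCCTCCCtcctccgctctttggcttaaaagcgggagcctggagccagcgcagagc
Socs3, chr11:117969452-117969616, minus strand: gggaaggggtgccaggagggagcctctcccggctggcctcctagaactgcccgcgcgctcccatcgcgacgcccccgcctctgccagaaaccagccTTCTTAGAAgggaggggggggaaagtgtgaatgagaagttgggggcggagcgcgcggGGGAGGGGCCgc
Saa3, chr7:46715701-46715926, minus strand: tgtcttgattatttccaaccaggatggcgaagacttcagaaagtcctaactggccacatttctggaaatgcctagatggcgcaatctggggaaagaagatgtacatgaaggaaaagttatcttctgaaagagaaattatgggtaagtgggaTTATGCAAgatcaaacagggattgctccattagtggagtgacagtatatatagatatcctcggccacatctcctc
Cp, chr3:19956804-19957053, plus strand: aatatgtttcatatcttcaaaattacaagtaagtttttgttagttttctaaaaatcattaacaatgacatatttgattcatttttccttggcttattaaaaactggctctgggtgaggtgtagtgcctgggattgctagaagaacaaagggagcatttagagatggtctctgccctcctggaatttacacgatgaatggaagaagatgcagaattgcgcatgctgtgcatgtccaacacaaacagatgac

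The Steap4, Saa3 and Cp stretches lie outside the annotated genes, and the Socs3 stretch lies inside the annotated gene, between exons. The Steap4 stretch held 3 runs of NF-κB letters, 1 of STAT letters and 1 of C/EBP letters, none overlapping another. Counted from the start site, the STAT run of Steap4 began at -116 and its C/EBP run at -87. Socs3 held 1 STAT run, from -154, and 1 NF-κB run, from -97. Saa3 held 1 C/EBP run, from -99, and the Cp stretch held none of the 3 motifs. A further RefSeq start of Cp, inside the annotated gene, had a window with 1 NF-κB run, from -146, and 1 C/EBP run, from -70, counted from that start. The Lcn2 window, which is not printed, held 1 C/EBP run, from -216, and 1 NF-κB run, from -102. Of 32851 promoter windows of the same full length, 50.8% held the NF-κB letters, 8.3% the STAT letters and 10.8% the C/EBP letters. The NF-κB letters are thus common, and a match is only a description of the sequence.

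Steap4 spanned the widest range of group means, relative to the lowest, of the 6 members that passed the filter on low counts. Steap4 was chosen for a large rise, which favored this width. Its gene lies at chr5:7960457-7982213. On day 1 it stood at 0.859, 0.979 and 1.78 CPM in the 3 WT libraries and at 11.5, 10.6 and 10.4 CPM in the 3 Bcl3-/- libraries. On day 3 it stood at 6.40, 9.94 and 14.5 CPM in WT and at 38.5, 58.1 and 50.5 CPM in Bcl3-/- libraries. All 3 Bcl3-/- libraries were above all 3 WT libraries on each day, as for 19.4% of genes tested on day 1 and 13.1% on day 3. The day 3 libraries were above those of day 1 in both genotypes, as for 25.1% of genes in WT and 23.3% in Bcl3-/-. The day 1 Bcl3-/- libraries lay inside the range of the day 3 WT libraries. Between genotypes, the log2 fold change of Steap4 was 3.13 (SE 0.33) on day 1 and 2.24 (SE 0.27) on day 3, which rank 32 and 35 from the highest of 16318 genes. Over time it was 3.06 (SE 0.33) in WT and 2.18 (SE 0.27) in Bcl3-/- cultures, and these comparisons share libraries with those between genotypes. The level was higher on day 3 in every culture, by 2.81, 3.26 and 2.98 log2 units in the WT cultures and by 1.74, 2.45 and 2.28 in the Bcl3-/- cultures. Without day 3 Bcl3-/- replicate 1, the day 3 fold change of Steap4 was 2.39 and that over time in Bcl3-/- cultures was 2.33. Because each value is an average over a culture, fewer cells of a type and less RNA per cell cannot be told apart for any gene here.

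**Figure D1:**
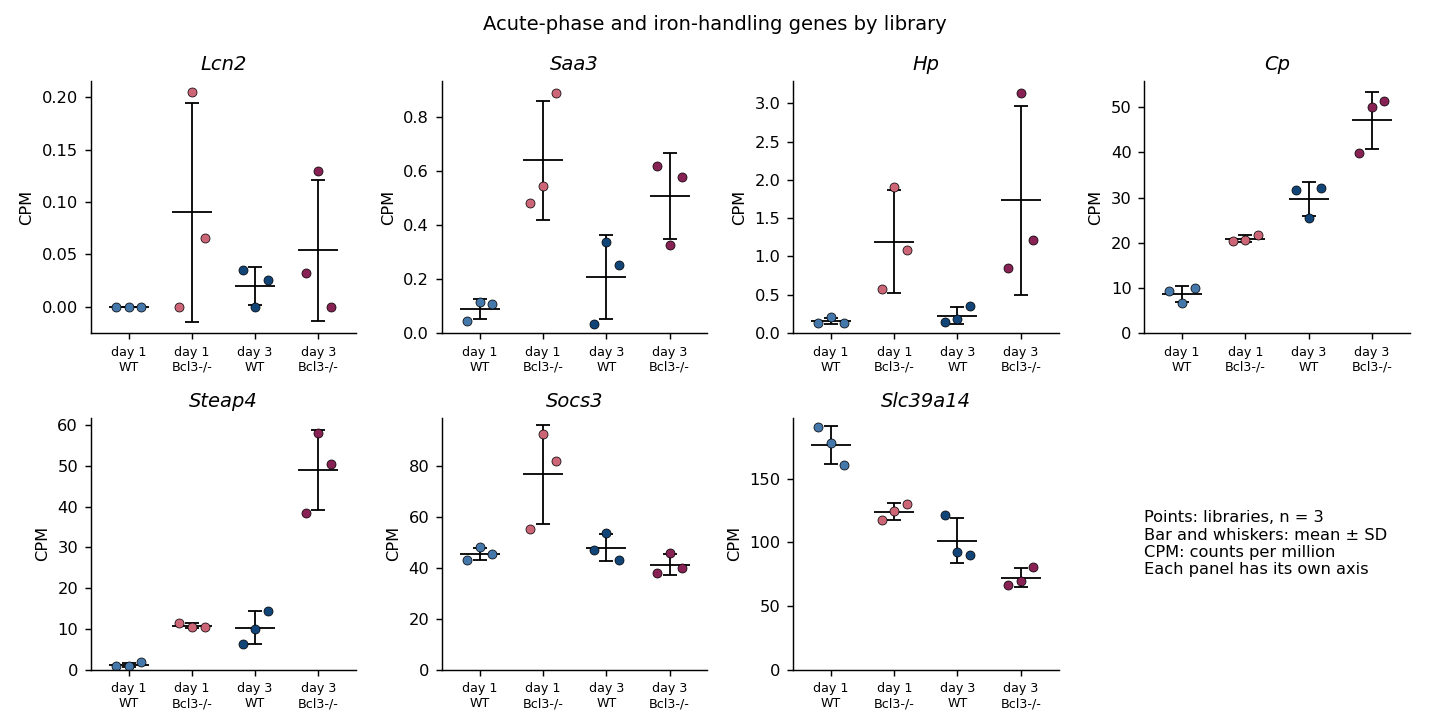
CPM (vertical axes, one scale per panel) of the 7 genes in each of the 12 libraries, in 4 groups of 3. Points are libraries, and the bar and whiskers are the mean and SD. Steap4 and Cp were lowest in day 1 WT and highest in day 3 Bcl3-/- libraries, and Slc39a14 was the reverse. Socs3 was highest in day 1 Bcl3-/- libraries. Lcn2 stayed under 0.21 CPM.

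Genotype changed Cp in the same direction on both days. Cp (chr3:19957054-20009145) encodes the ferroxidase ceruloplasmin. It stood at 9.36, 6.69 and 10.0 CPM in day 1 WT and at 20.4, 20.7 and 21.7 CPM in day 1 Bcl3-/- libraries. On day 3 the values were 31.7, 25.4 and 32.1 CPM in WT, against 39.9, 50.2 and 51.4 CPM in Bcl3-/- libraries. The 4 groups did not overlap in either genotype comparison or in either time comparison. A group lying wholly above the other in these directions was seen for 19.4% of genes between genotypes on day 1 and 13.1% on day 3. Over time it was seen for 25.1% in WT and 23.3% in Bcl3-/- cultures. Cp rose with the Bcl3-/- genotype by 1.27 on the log2 scale on day 1 (SE 0.15, adjusted p = 5.49e-04) and by 0.66 on day 3 (SE 0.14, adjusted p = 0.0124). It also rose from day 1 to day 3, by 1.78 in WT (SE 0.15, adjusted p = 7.74e-06) and by 1.17 in Bcl3-/- cultures (SE 0.15, adjusted p = 9.70e-05). The rise over time was seen in 6 of 6 cultures. Without day 3 Bcl3-/- replicate 1 the day 3 difference was 0.77 (adjusted p = 0.00719), and without replicate 2 of that group it was 0.61 (adjusted p = 0.0529). Over all alternatives the adjusted p of this difference ran from 5.59e-04 to 0.0801.

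Slc39a14, the zinc and iron importer, went the other way. Its gene lies at chr14:70303469-70351425. It stood at 190.7, 178 and 161 CPM in day 1 WT and at 117, 125 and 130.3 CPM in day 1 Bcl3-/- libraries. On day 3 it stood at 121, 92.2 and 90.1 CPM in WT and at 66.8, 69.8 and 80.4 CPM in Bcl3-/- libraries. Here too the groups did not overlap within a day or within a genotype. A group lying wholly below the other was seen for 18.9% of genes between genotypes on day 1 and 15.6% on day 3, and for 23.7% over time in WT and 23.9% in Bcl3-/- cultures. Slc39a14 was lower in Bcl3-/- libraries by a log2 fold change of -0.51 on day 1 (SE 0.11, adjusted p = 0.0106) and -0.49 on day 3 (SE 0.11, adjusted p = 0.0192). It fell over time by 0.80 in WT (SE 0.11, adjusted p = 1.80e-04) and by 0.78 in Bcl3-/- cultures (SE 0.12, adjusted p = 3.37e-04), in all 6 cultures. The day 3 call was lost without day 3 Bcl3-/- replicate 1 (-0.43, adjusted p = 0.0538), without replicate 2 of that group (-0.46, adjusted p = 0.0733) and without day 3 WT replicate 1 (-0.33, adjusted p = 0.0717), and adjusted p ran from 0.00188 to 0.0782 over the alternatives for that comparison.

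Lcn2 was close to absent. Over the 12 libraries it had 15 counts in all, and 6 libraries had none. Its counts were 0, 0 and 0 in day 1 WT, 0, 6 and 2 in day 1 Bcl3-/-, 1, 0 and 1 in day 3 WT, and 1, 4 and 0 in day 3 Bcl3-/- libraries. A library at 0 still allows up to 3 counts, which is 0.0715 to 0.150 CPM at these depths, and this covers counting error only. No difference in Lcn2 was detectable, and it did not pass the filter on low counts, so no fold change is given.

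Saa3 and Hp were low in WT and passed the filter through their Bcl3-/- libraries, so the filter kept them only because they were high there. Counts of members called are given without them, except for the interaction and the alternatives, where this is stated. Saa3 (chr7:46711998-46715700) had 1, 5 and 4 counts in day 1 WT and 19, 16 and 27 in day 1 Bcl3-/- libraries, a mean of 0.0885 ± 0.0377 CPM against 0.638 ± 0.220 CPM (SD, n = 3). Saa3 had 1, 11 and 10 counts in day 3 WT and 19, 10 and 11 in day 3 Bcl3-/- libraries, or 0.208 ± 0.156 CPM against 0.507 ± 0.160 CPM. The groups were apart on day 1, as for 19.4% of genes in this direction, and overlapped on day 3. Saa3 was higher in day 1 Bcl3-/- libraries by 2.69 on the log2 scale (SE 0.58, adjusted p = 0.00924). With no filter on low counts, so that its test did not depend on passing one, the value was 2.70 (SE 0.57, adjusted p = 0.00259). On day 3 its log2 fold change was 1.21 (SE 0.54, adjusted p = 0.172), which did not pass. Its fold changes over time were 1.14 in WT (SE 0.66, adjusted p = 0.2) and -0.34 in Bcl3-/- cultures (SE 0.47, adjusted p = 0.624). Without day 3 WT replicate 1, which had 1 count, the WT value was 1.58 (adjusted p = 0.0403, against 0.0403 to 0.525 over the alternatives). Saa3 belongs to a family of related neighboring genes, and how reads matching several copies were treated is not given in the sources used here. Of its relatives, Saa1, Saa2 and Saa4 did not pass the filter and Saa2 was at 0 throughout.

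Hp, the hemoglobin scavenger (chr8:109575128-109579172), had 3, 9 and 5 counts in day 1 WT and 23, 56 and 33 in day 1 Bcl3-/- libraries. These are means of 0.158 ± 0.0407 CPM and 1.19 ± 0.670 CPM (SD, n = 3). On day 3 Hp had 4, 6 and 14 counts in WT and 26, 97 and 23 in Bcl3-/- libraries, or 0.225 ± 0.111 CPM against 1.73 ± 1.23 CPM. The genotypes were apart on both days, as for 19.4% of genes in this direction on day 1 and 13.1% on day 3. Replicate 2, from one culture, was the highest Bcl3-/- library on each day. Hp was higher in Bcl3-/- libraries by 2.83 on the log2 scale on day 1 (SE 0.64, adjusted p = 0.0115) and by 2.89 on day 3 (SE 0.60, adjusted p = 0.0103). With no filter on low counts the values were 2.83 (adjusted p = 0.00934) and 2.87 (adjusted p = 0.00642). On day 1 the call was lost with limma on log2(FPKM + 1), at 0.82 (adjusted p = 0.136), and adjusted p ran from 2.34e-04 to 0.136 over the alternatives. Without day 3 Bcl3-/- replicate 1, the day 3 value of Hp was 3.23 (adjusted p = 0.00488). Without replicate 2 of that group it was 2.10 (adjusted p = 0.0523), without day 3 WT replicate 1 it was 2.67 (adjusted p = 0.0519), and adjusted p ran from 1.09e-04 to 0.1 over the alternatives. No change over time was called for Hp, with log2 values of 0.51 in WT (SE 0.76) and 0.58 in Bcl3-/- cultures (SE 0.50).

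Socs3 (chr11:117966079-117970047), the gp130 feedback inhibitor, was highest in day 1 Bcl3-/- libraries. It stood at 43.1, 47.9 and 45.2 CPM in day 1 WT and at 55.1, 92.5 and 81.9 CPM in day 1 Bcl3-/- libraries. On day 3 it stood at 46.7, 53.6 and 43.1 CPM in WT and at 37.8, 45.7 and 40.0 CPM in Bcl3-/- libraries. The genotypes were apart on day 1, as for 19.4% of genes in this direction, and overlapped on day 3. Socs3 was higher in Bcl3-/- libraries on day 1 by 0.75 (SE 0.16, adjusted p = 0.00861), and its log2 fold change on day 3 was -0.21 (SE 0.16, adjusted p = 0.428). Over time it was at 0.07 in WT (SE 0.16, adjusted p = 0.759), and it fell by 0.89 in Bcl3-/- cultures (SE 0.16, adjusted p = 0.0013). By culture, the log2 difference of day 3 from day 1 was 0.11, 0.16 and -0.07 in WT and -0.54, -1.02 and -1.03 in Bcl3-/- cultures.

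**Figure D2:**
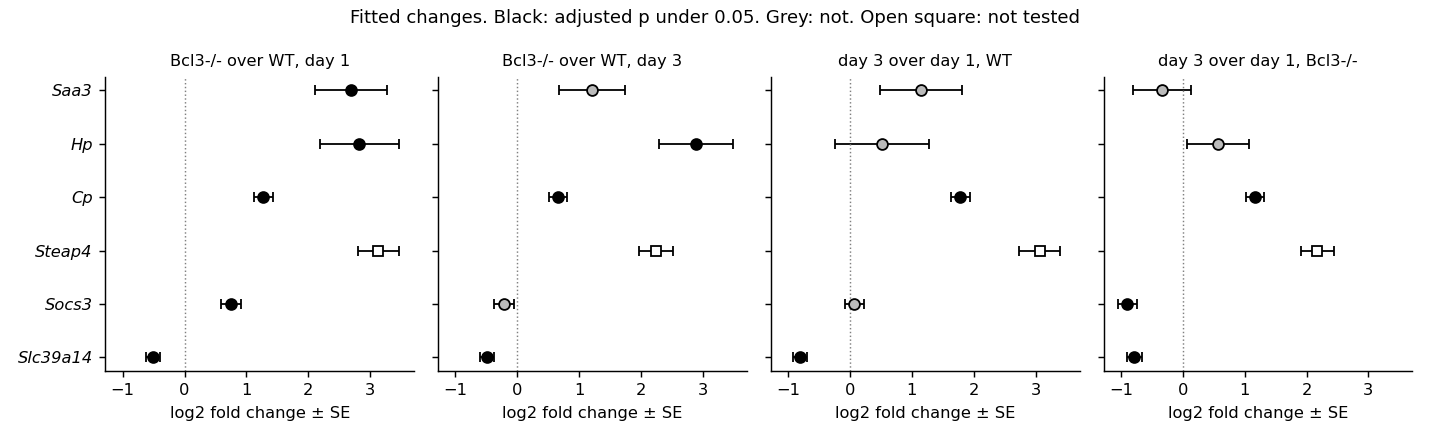
Log2 fold changes with their SE (horizontal axes) of 6 genes in 4 comparisons, each fitted with edgeR over all 12 libraries. Filled black circles passed an adjusted p of 0.05, grey circles did not, and the open square is Steap4, which was not tested. Hp and Saa3 carry the widest errors, and Slc39a14 lies below 0 in all 4 panels.

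Cp, Socs3 and Slc39a14 were above the filter in all 12 libraries. On day 1 these 3 were called between genotypes, Cp and Socs3 higher and Slc39a14 lower in Bcl3-/- libraries, where 15.4% of all genes tested were called, 9.02% higher and 6.36% lower. On day 3, 2 of the 3 were called, Cp higher and Slc39a14 lower, against 10.4% of all genes, 4.78% higher and 5.66% lower. Leaving out the first replicate of either genotype on day 3 left 1 call (Cp), and leaving out day 3 Bcl3-/- replicate 2 left 0. Over time in WT, 2 were called (Cp higher, Slc39a14 lower), against 38.5% of all genes (20.6% higher, 17.9% lower). Over time in Bcl3-/- cultures, 3 were called (Cp higher, Socs3 and Slc39a14 lower), against 33.3% (16.2% higher, 17.1% lower). The 4 comparisons share libraries in pairs.

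Whether the change over time differed between genotypes was tested as an interaction. Of the 5 genes with a test, Saa3 and Hp included, 0 passed with edgeR, against 0.919% of all genes (0.153% higher, 0.766% lower). At an unadjusted p under 0.05, 2 of the 5 would pass, Socs3 and Cp. Socs3 came nearest, at -0.96 (SE 0.22, adjusted p = 0.0692), and it was the only one of the 5 with an adjusted p under 0.1. With the culture code as a block, which pairs the days, its interaction was -0.93 (adjusted p = 0.023), and DESeq2 gave -0.96 (adjusted p = 0.00444). Without day 1 Bcl3-/- replicate 1, the lowest of its group, it was -1.13 (adjusted p = 0.0287). Adjusted p for this term ran from 0.00444 to 0.229 over the alternatives. For Cp the interaction was -0.61 (SE 0.21, adjusted p = 0.23), and for Saa3 it was -1.48 (SE 0.81, adjusted p = 0.533). For Steap4 the interaction was -0.89 (SE 0.43), given without a test.

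Compared per transcript length, the order of the genes shifted between groups. FPKM, which divides by transcript length and depth, allows levels of different genes to be set side by side. In day 1 WT libraries Slc39a14 stood at 43.5 ± 5.74 FPKM (SD, n = 3), Socs3 at 19.3 ± 0.967, Cp at 2.86 ± 0.426 and Steap4 at 0.406 ± 0.164 FPKM. These 4 did not overlap their neighbors in that order, except that Steap4 overlapped Saa3 at 0.286 ± 0.121 FPKM, next below it. In day 3 Bcl3-/- libraries the same genes stood at 17.2 ± 0.833 FPKM for Slc39a14, 16.3 ± 1.76 for Socs3, 15.3 ± 3.04 for Steap4 and 14.2 ± 1.87 FPKM for Cp, and each overlapped the next. Hp at 1.44 ± 0.953 FPKM and Saa3 at 1.15 ± 0.340 FPKM lay below all 4 in that group. Lcn2 was last in every group.

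**Figure D3:**
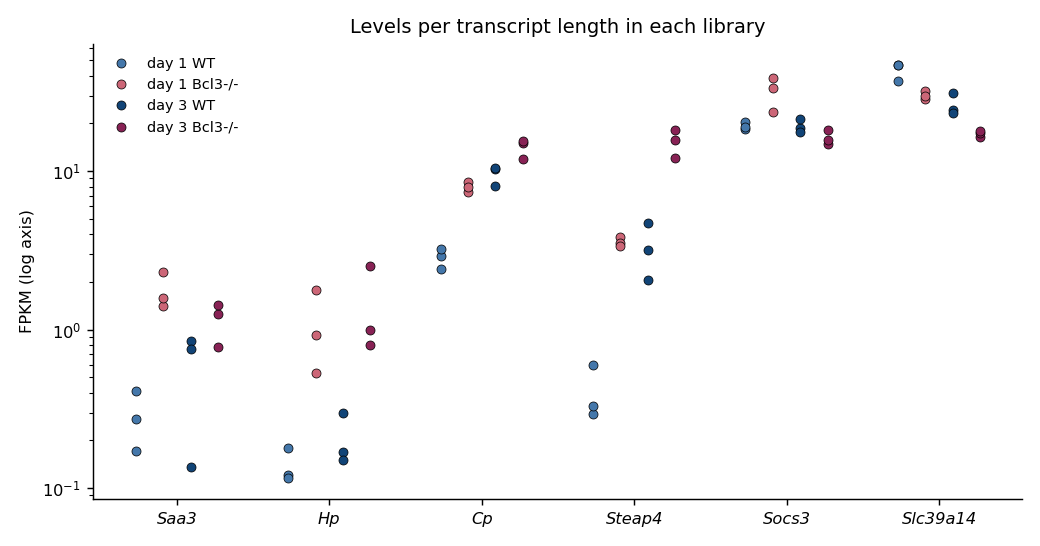
FPKM on a log axis of 6 genes in each library, with 1 point per library and 1 color per group. Steap4 and Cp reached the level of Socs3 and Slc39a14 in the day 3 Bcl3-/- libraries. Lcn2, listed at 0 in 6 libraries, is not drawn.

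Across the 12 libraries the log2 CPM of Steap4 and Cp correlated at a Pearson r of 0.953, Steap4 and Slc39a14 at -0.945, and Steap4 and Socs3 at -0.05. These are descriptions over libraries that share groups, cultures and days. Among 11977 genes searched, the 5 most like Steap4 were Lbp at 0.996, Egfl6 at 0.994, C3 at 0.994, Meox2 at 0.994 and Enpep at 0.993. Lbp encodes the lipopolysaccharide-binding protein and C3 the central complement component, both secreted acute-phase proteins. Egfl6, Meox2 and Enpep, at nearly the same r, are not among the acute-phase genes listed below. Gpr146, Pbxip1 and Mme were most like Cp (0.993 to 0.997), and Fam129b, Rrp12 and Nadk most like Slc39a14 (0.992 to 0.993). The nearest genes were less alike for the low or day 1 genes, with Rnf125, Lifr and Ltbr at 0.930 to 0.952 for Hp, Apln, Efcab7 and Rcor2 at 0.899 to 0.925 for Saa3, and Acta1, Runx1 and Il13ra1 at 0.837 to 0.842 for Socs3.

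The other 3 STEAP genes differed less between groups than Steap4, which the choice of Steap4 for its large rise favored. Of these 3, 2 fell over time. Steap1 stood at 38.0 ± 3.82 CPM in day 1 WT and 12.4 ± 1.29 CPM in day 3 Bcl3-/- libraries (SD, n = 3), and it fell over time by 1.13 in WT (SE 0.12, adjusted p = 2.81e-05) and by 1.37 in Bcl3-/- cultures (SE 0.12, adjusted p = 9.91e-06). Steap1 was also lower in Bcl3-/- libraries on day 3, at -0.49 (SE 0.12, adjusted p = 0.0271), and without day 3 Bcl3-/- replicate 1 this was -0.47 (adjusted p = 0.0627). Steap2, the family's highest in day 1 WT per transcript length at 47.9 ± 3.17 FPKM, fell over time by 0.86 in WT (SE 0.12, adjusted p = 1.59e-04) and by 0.98 in Bcl3-/- cultures (SE 0.12, adjusted p = 9.70e-05), and it was not called between genotypes. Steap3, the endosomal reductase of the transferrin cycle, was the one with calls in the directions seen for Steap4. It was higher in Bcl3-/- libraries on day 1 by 0.63 (SE 0.11, adjusted p = 0.00266) and rose over time by 0.72 in WT (SE 0.11, adjusted p = 2.05e-04) and by 0.38 in Bcl3-/- cultures (SE 0.10, adjusted p = 0.0144). Its day 3 genotype value was 0.28 (SE 0.10, adjusted p = 0.104).

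**Figure D4:**
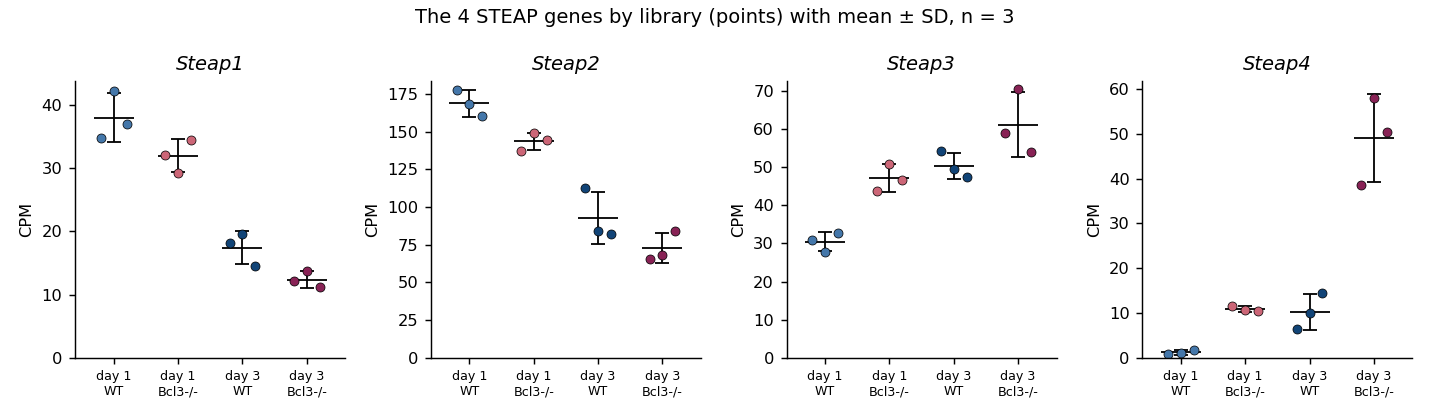
CPM of Steap1, Steap2, Steap3 and Steap4 in each library (points), with the mean and SD of 3 libraries per group and a separate axis for each gene. Steap1 and Steap2 were lower on day 3 than on day 1 in both genotypes, while Steap3 and Steap4 were higher.

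Of 35 other iron genes, 30 passed the filter. Between genotypes on day 1, 8 were higher and 4 lower in Bcl3-/- libraries, which is 40% of those tested against 15.4% of all genes, with a median log2 fold change of 0.06 against 0.0024 over all genes tested. Genes of a list that passed the filter through the group where they are high had to differ, so such shares are descriptions. The higher ones included Heph, the membrane-bound relative of ceruloplasmin (0.88, SE 0.14, adjusted p = 0.00182), and Slc40a1, the iron exporter ferroportin (1.06, SE 0.19, adjusted p = 0.00398). Tfrc, the transferrin receptor through which cells take up iron, was lower (-0.50, SE 0.09, adjusted p = 0.00373), as were Flvcr1, Hmox1 and Slc25a37. The ferritin chains were not called, with Fth1 at 0.13 (SE 0.15, adjusted p = 0.64) and Ftl1 at -0.20 (SE 0.15, adjusted p = 0.453). These 2 were chosen after their values were seen. On day 3, 4 were higher (Blvrb, Trf, Heph and Slc39a8) and 1 lower (Steap1), 16.7% against 10.4% of all genes, with a median of -0.023 against -0.0023 over all genes. Without day 3 Bcl3-/- replicate 1 the day 3 count was 5 higher and 0 lower. In each genotype, 11 rose and 5 fell over time, 53.3% against 38.5% of all genes in WT and 33.3% in Bcl3-/- cultures, with medians of 0.13 in WT and 0.16 in Bcl3-/- cultures against 0.0014 and 0.0012 over all genes. In WT cultures the changes with the smallest adjusted p were those of Tfr2 (1.83, SE 0.18, adjusted p = 1.45e-05), Steap1, Hfe (1.64, SE 0.18, adjusted p = 3.65e-05) and Slc40a1 (1.74, SE 0.19, adjusted p = 4.27e-05). Cybrd1, a ferric reductase, rose by 2.00 in WT (SE 0.25, adjusted p = 9.21e-05) and by 1.66 in Bcl3-/- cultures (SE 0.24, adjusted p = 3.57e-04).

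Of 30 other acute-phase genes, 13 passed the filter. Among the 17 that did not were the classical plasma proteins Crp, Orm1, Fga and Fgg and the iron hormone Hamp, and Saa2, Apcs and Fgb had no count. On day 1, 6 were higher and 1 lower in Bcl3-/- libraries, 53.8% of those tested against 15.4% of all genes, with a median of 0.84. Lbp was at 28.9 CPM against 5.56 CPM in WT (2.37, SE 0.24, adjusted p = 3.58e-04), C3 at 13.0 against 1.79 CPM (2.86, SE 0.34, adjusted p = 9.66e-04), and Serpina3n, a protease inhibitor, at 4.93 against 1.37 CPM (1.81, SE 0.24, adjusted p = 9.30e-04). On day 3, 5 were higher and 1 lower, 46.2% against 10.4%, with a median of 0.52. C3 was at 55.0 against 12.8 CPM (2.09, SE 0.29, adjusted p = 0.00267), Lbp at 95.5 against 27.7 CPM (1.78, SE 0.22, adjusted p = 0.00185) and Cfb at 1.92 against 0.575 CPM (1.71, SE 0.33, adjusted p = 0.00739), whereas Serpina3g was lower (-1.09, SE 0.29, adjusted p = 0.0339). Without day 3 Bcl3-/- replicate 1, Serpina3g was at -1.18 (adjusted p = 0.0527). In WT cultures 6 of these genes rose and 2 fell over time, 61.5% against 38.5% of all genes, with a median of 0.54. The Bcl3-/- cultures had 4 that rose and 3 that fell, 53.8% against 33.3%, with a median of 0.11, and these were 3 and 4 without day 3 Bcl3-/- replicate 1. Ptx3 fell in both, by 1.10 in WT (SE 0.13, adjusted p = 4.69e-05) and by 0.87 in Bcl3-/- cultures (SE 0.13, adjusted p = 3.37e-04).

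Il6, Il1b and Tnf, cytokine genes that induce acute-phase genes, had their lowest mean level in day 3 Bcl3-/- libraries. None of them was called between genotypes on day 3 with all libraries, and their part in the levels of the members was not tested. Il6 stood at 2.71, 2.62 and 2.21 CPM in day 1 WT and at 3.01, 4.74 and 4.02 CPM in day 1 Bcl3-/- libraries, and it was not called between genotypes on day 1 (0.64, SE 0.33, adjusted p = 0.22) or day 3 (-0.88, SE 0.37, adjusted p = 0.148). It fell over time in Bcl3-/- cultures by 1.92 (SE 0.36, adjusted p = 0.00152). Il1b, which encodes IL-1β, fell there by 3.80 (SE 1.04, adjusted p = 0.0222). Its day 3 Bcl3-/- values were 9.27, 0.032 and 0.21 CPM, so replicate 1 held nearly all of it. The day 3 WT libraries had 13.8, 10.2 and 9.63 CPM of Il1b. Between genotypes on day 3, Il1b was not called with all libraries (-1.72, SE 1.03, adjusted p = 0.331), and without replicate 1 it was at -6.73 (SE 0.97, adjusted p = 0.0032), which rests on 1 and 4 counts in the remaining Bcl3-/- libraries. Tnf fell over time in Bcl3-/- cultures by 2.09 (SE 0.51, adjusted p = 0.00831), and its day 3 genotype value was -1.50 (adjusted p = 0.0881), or -2.73 (adjusted p = 0.00696) without replicate 1. Among 26 genes of the IL-1, tumor necrosis factor, IL-17 and NF-κB inputs, 25 passed the filter. On day 1, 3 were higher and 0 lower in Bcl3-/- libraries, which at 12% is below the 15.4% of all genes. On day 3, 0 were higher and 6 lower, 24% against 10.4%. Over time in Bcl3-/- cultures 0 rose and 15 fell, 60% against 33.3%. The medians were 0.21, -0.21 and -0.51. In WT, 1 rose and 4 fell over time, 20% against 38.5% of all genes, with a median of -0.19. Without day 3 Bcl3-/- replicate 1 the counts were 1 higher and 8 lower on day 3, 1 and 18 over time in Bcl3-/- and 2 and 8 over time in WT cultures. No share of all genes is given for that fit. The 6 lower on day 3 were Tnfrsf1b, Rel, Nfkbiz, Tnfaip3, Il1rn and Nfkb2, several of which are themselves NF-κB targets. Nfkbiz, an atypical IκB that is required for many secondary NF-κB targets, was at 7.72 against 12.4 CPM (-0.68, SE 0.19, adjusted p = 0.0357), and at -0.69 (adjusted p = 0.0707) without that library. Il1rn and Nfkb2 were then not called either (adjusted p = 0.08 and 0.0837).

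Of 29 genes of gp130 signaling other than Socs3, 28 passed the filter. On day 1, 5 were higher and 2 lower in Bcl3-/- libraries, and on day 3, 3 were higher and 3 lower, with medians of 0.18 and -0.035. These are 25% against 15.4% of all genes on day 1 and 21.4% against 10.4% on day 3. Cebpd, a transcription factor of the acute phase, was at 82.1 against 49.8 CPM on day 1 (0.72, SE 0.12, adjusted p = 0.0027), as Socs3 was, and its day 3 value was 0.21 (SE 0.12, adjusted p = 0.291). The receptor genes Lifr and Il11ra1 were higher on both days, by 0.51 and 0.88 on day 1 (adjusted p = 0.00494 and 0.00503) and by 0.55 and 0.76 on day 3 (adjusted p = 0.00498 and 0.0131). Among the ligands, Lif was lower on day 3 (-1.24, SE 0.23, adjusted p = 0.00579). In WT cultures 8 rose and 7 fell over time, and Bcl3-/- cultures had 5 that rose and 11 that fell (4 and 9 without day 3 Bcl3-/- replicate 1), 53.6% and 57.1% against 38.5% and 33.3% of all genes, with medians of -0.042 and -0.16. Stat3 and Cebpb were not called between genotypes on either day, with Stat3 at 0.19 (SE 0.09, adjusted p = 0.177) on day 1 and Cebpb at -0.058 (SE 0.08, adjusted p = 0.723). In the fit of all libraries no gene of these 4 lists passed the interaction test, against 0.919% of all genes. Without day 3 Bcl3-/- replicate 1, 1 gp130 gene and 4 of the cytokine input genes passed, all lower. The share of all genes that passed in that fit is not reported here, so whether calls rose in general cannot be read from these counts.

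The libraries expressed all 14 osteoblast markers, with summed levels of 38299 to 55375 CPM in day 1 WT, 65386 to 68607 in day 1 Bcl3-/-, 78306 to 84981 in day 3 WT and 80649 to 86743 CPM in day 3 Bcl3-/- libraries. In Bcl3-/- libraries 5 of them were higher and 2 lower on day 1, 50% against 15.4% of all genes. On day 3, 3 were higher and 2 lower, 35.7% against 10.4% of all genes. Hp, Lcn2, Saa3 and Steap4 are also known from fat. The summed level of 12 adipocyte markers was 33.7 to 47.0 CPM in day 1 WT, 102 to 124 in day 1 Bcl3-/-, 59.7 to 106 in day 3 WT and 250.7 to 312 CPM in day 3 Bcl3-/- libraries. This sum was wholly higher in Bcl3-/- libraries on both days, as were 19.4% of single genes on day 1 and 13.1% on day 3. Of these 12, 6 passed the filter, and 4 were higher and 0 lower in Bcl3-/- libraries on each day. That is 66.7% of those tested, against 15.4% of all genes on day 1 and 10.4% on day 3. The called ones were Lpl, Car3 and Cebpa on both days, with Slc2a4 on day 1 and Pparg on day 3. Fabp4 passed the filter and was called on neither day. Adipoq, Plin1, Cfd and Retn did not pass the filter, and Cidec and Lep had no count. The part of such cells in the levels of Steap4, Hp, Saa3 and Cp was not tested.

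Lcn2 and Hp are also neutrophil granule genes. The 12 neutrophil markers summed to 1.22 to 1.33 CPM in day 1 WT, 1.57 to 2.18 in day 1 Bcl3-/-, at most 1.504 in day 3 WT and 0.736 to 2.23 CPM in day 3 Bcl3-/- libraries. The sums were apart between genotypes on day 1, as were 19.4% of single genes in this direction, and overlapped on day 3. Of these markers, 9, including S100a8, S100a9, Mpo and Elane, did not pass the filter. None of the other 3 was called in any comparison. The part of neutrophils in the counts of Lcn2 and Hp was not tested. Of 8 hepatocyte markers, 1 passed the filter, none was called, and the sums were 0.473 to 1.20 CPM. The 14 macrophage markers all passed. Their sums with all libraries overlapped between genotypes, at 339.8 to 539 CPM in day 1 WT, 389 to 425 in day 1 Bcl3-/-, 795 to 1200.5 in day 3 WT and 493 to 984 CPM in day 3 Bcl3-/- libraries, and day 3 Bcl3-/- replicate 1 held the highest of its group. Without it the day 3 Bcl3-/- sums, 493 and 703 CPM, lay below all those of WT. Over time 11 rose in WT, 78.6% against 38.5% of all genes. In Bcl3-/- cultures 9 rose and 1 fell, 71.4% against 33.3%, or 6 and 2 without day 3 Bcl3-/- replicate 1. Between genotypes 2, Cx3cr1 and Csf1r, were lower in Bcl3-/- libraries on day 3, 14.3% against 10.4% of all genes, and 5 were lower without replicate 1. The part of macrophages in the changes of Saa3, Socs3, Il1b and the iron genes over time was not tested.

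**Figure D5:**
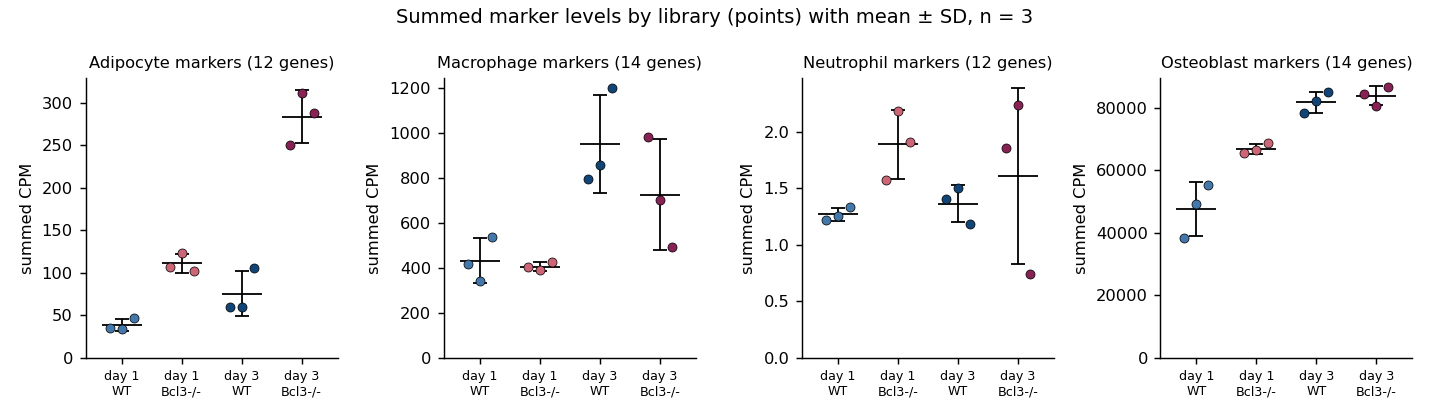
Summed CPM of the adipocyte, macrophage, neutrophil and osteoblast marker lists in each library (points), with the mean and SD of 3 libraries per group. The adipocyte sum was above 250 CPM in the 3 day 3 Bcl3-/- libraries and at most 124 CPM in all others, the neutrophil sum never passed 2.3 CPM, and the macrophage sums of the genotypes overlapped on both days, on day 3 through 1 Bcl3-/- library, replicate 1.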

How the data were processed

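RNA from 12 libraries (4 groups of 3) was analysed. The deposited table holds raw counts per gene, which the authors made with Trim Galore, TopHat2 on GRCm38 (mm10) and HTSeq. Tool versions, strand setting and annotation release are not given in the sources used here. The FPKM values were estimated by the authors with Cufflinks. Reads outside genes (12.3 to 14.7% per library) were left out of the counts, and 49 FPKM entries with more than 1 value and 1 stray header were left out. Symbols and positions came from GENCODE M21 (GRCm38) and promoters from RefSeq.

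Counts were filtered with filterByExpr (10 counts, 0.315 CPM at the median depth of 31792039), which kept 16318 genes, and scaled by TMM (0.951 to 1.05). One edgeR quasi-likelihood fit of the 4 groups gave all contrasts, with Benjamini-Hochberg adjustment over all genes and a threshold of 0.05. The biological coefficient of variation was 13.5%. Fold changes are log2, with SE. The fit was tested on simulated data. Deviations of libraries of one culture correlated over time at 0.327, 0.243 and 0.251 in WT and at -0.129, -0.0168 and -0.157 in Bcl3-/-, where the culture codes in the labels pair the days. Genes named were the members, Bcl3, the nearest genes by correlation (mean of at least 1 log2 CPM), up to 4 called genes per list and contrast with any going against the list, and fixed inputs and STEAP relatives. Some genes counted in the lists are not reported here by name. The members and lists were chosen with earlier results of these data known. Alternatives were DESeq2, RLE scaling, other filters, FPKM with limma, blocks and leaving out each library. The replicates may share technical conditions, so p-values measure the spread between these cultures. Software was edgeR 4.0.16, DESeq2 1.42.0 and limma 3.58.1 in R 4.3.3, and pandas 2.3.3 and numpy 2.4.6 in Python 3.11.15. Counts called in the lists under each alternative, and the named inputs and list genes without 1 library, were added after seeing the data.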

Additional observations from a re-analysis of the deposited data

How the results depend on the processing

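Most values kept their direction and side of the threshold. Of the alternatives for single genes, 583 did so, 11 lost a call, 5 gained one, 4 moved in size and 22 turned in sign. The count called on day 1 was 3 where at least 1 CPM in at least 6 libraries was required, since Saa3 and Hp were then not tested. The counts of members here include both, which passed the main filter through their Bcl3-/- libraries. With both, the counts stand at 5 on day 1 and 3 on day 3. They serve only as a base for the alternatives. Because the filter favored both genes, these counts cannot be read against the 15.4% and 10.4% of all genes tested that were called. The day 3 count was 1 with limma on log2(FPKM + 1), and 0 to 3 when one library was left out. When one library was left out, the interaction count was 0 to 1, the WT time count 2 to 3 and the others did not move. The interaction count was 1 (Socs3) with DESeq2, with the replicate block by title number (adjusted p = 0.0414) and with the block by culture. These blocks changed no other call. Steap4 had day 1 and WT time values of 1.71 and 1.57 with log2(FPKM + 1), and its interaction turned to 0.24 there, with or without a filter on FPKM; the added 1 shrinks low values. Among values that turned in sign and were not called, Socs3 over time in WT was -0.0041 with log2(FPKM + 1), with or without the FPKM filter, and -0.0044 with log2(FPKM + 0.1). The Slc39a14 interaction was -0.013 without a count filter, -0.053 with log2(FPKM + 1) and -0.064 with log2(FPKM + 0.1), and the Hp interaction was -0.12 with the title block and -0.020 with the culture block. With libraries left out, Socs3 over time in WT ran from -0.018 to 0.14, Hp over time in Bcl3-/- from -0.22 to 1.09, the Hp interaction from -0.73 to 0.60 and that of Slc39a14 from -0.059 to 0.17. For the lists of other genes, 134 of the counts called under an alternative differed by more than 1.5 times from those reported and 829 did not: on day 1 the counts ran from 4 to 10 for acute-phase, 7 to 13 for iron, 5 to 9 for gp130 and 1 to 5 for cytokine input genes, against 7, 12, 7 and 3, and on day 3 from 3 to 6, 1 to 6, 3 to 7 and 2 to 9, against 6, 5, 6 and 6. The causes were not tested. Depth limits Lcn2, Saa3 and Hp, which rest on few counts.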
